A study of Mus musculus with 9 samples.

Results

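Genes of pericytes and vascular smooth muscle were followed across 9 RNA libraries of sorted mouse lung endothelium. Out of 56748 gene identifiers in the count table, the set holds 31 genes. These genes were chosen by name as markers of these mural cells, with earlier results of these data known. Of these, 18 were grouped as pericyte genes, 12 as smooth muscle genes, and Mcam, which pericytes, smooth muscle and endothelium all express, was kept apart. Enough reads for a test were found for 30 of the 31 genes, and Ebf2 had at most 4 counts in any library. The libraries came from C57BL/6 mice of 6 weeks, with 3 libraries each of the genotypes WT, DNMAML and Notch1f/f, and all cells had been sorted as DAPI-/CD45-/CD31+. DNMAML is the usual name of a truncated Mastermind-like protein that blocks transcription by Notch receptors, while the name Notch1f/f denotes Notch1 alleles flanked by recombination sites. The sources used here do not name a recombinase, the cells it acted in, or whether a library is 1 mouse or a pool. The p-values therefore reflect the spread among these libraries, which may be technical in part.

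Mural cells wrap the endothelial tube. Pericytes sit on capillaries within the basement membrane and are recruited by endothelial PDGF-B, which acts on their receptor PDGFRB. Smooth muscle cells ring arteries, veins and airways and contract through a dedicated set of actin, myosin and regulatory proteins. Both cell types use NOTCH3, and Notch ligands on endothelium are among its activators. The cells that held the mural RNA in these CD31+ sorted samples were not measured. In such bulk samples fewer cells of a type and less RNA per cell cannot be told apart.

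The libraries held 15522100 to 27842496 counts. Endothelial genes were abundant, with the junction gene Cdh5 at 5366 to 6656 CPM, the read count scaled to the TMM-adjusted library size. Notch1 itself was at 766 to 909 CPM in WT, 679 to 872 CPM in DNMAML and 29.5 to 176 CPM in Notch1f/f libraries. Y-linked genes were at 245 to 321 CPM of the unadjusted total in WT replicate 2, DNMAML replicates 1 and 3 and Notch1f/f replicate 1, and at most 0.642 in the others, so every genotype held both sexes. The immediate early gene Fos was lowest in WT replicate 2, DNMAML replicate 2 and Notch1f/f replicate 1, at 319, 345 and 495 CPM, against 1230 to 2006 CPM in the others.

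In Notch1f/f libraries 7 of the 30 tested members fell against WT and none rose. Pericyte genes made up 6 of the 7: the PDGF receptor Pdgfrb, the proteoglycan Cspg4, the mitochondrial protein gene Higd1b, the cyclase subunit Gucy1a1, the protocadherin Pcdh18 and Fam162b. The remaining gene was Synpo2, which encodes an actin-binding protein of smooth and striated muscle. A gene fell or rose where the edgeR quasi-likelihood test gave a Benjamini-Hochberg adjusted p below 0.05 over 19486 genes. By that rule 0.836% of all tested genes changed, with 0.323% lower and 0.513% higher. At an unadjusted p below 0.05 there were 17 members lower and 3 higher, where 13.4% of all genes passed in either direction, and with DESeq2 15 were lower and 0 higher, where 2.19% of all genes were called lower and 2.57% higher. The groups did not overlap for 16 lower and 3 higher members, while 9.33% of all genes were lower and 8.5% higher without overlap. Values of 22 of the 30 members were below WT, where 48.3% of all genes were. The median log2 difference over the 30 members was -1.13, against 0.02 over all genes.

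The size of these falls was steadier than the call. Over 19 other settings the log2 difference stayed negative for each of the 7 genes, between -1.60 and -3.35. The number of members called lower was 0 without WT replicate 1, WT replicate 2 or Notch1f/f replicate 2, and 3 without WT replicate 3. It rose to 12 when DNMAML replicate 2 was left out and to 11 when Notch1f/f replicate 3 was. The share of all genes called lower moved as well, from 0.0241% without WT replicate 1 to 0.788% without Notch1f/f replicate 1. With limma-voom 1 member was called lower, where 0.123% of all genes were. Of the 9 fits that leave out a library, the call was kept in 6 for Pdgfrb, Cspg4 and Higd1b, in 5 for Synpo2, in 4 for Pcdh18 and Fam162b and in 3 for Gucy1a1.

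**Figure D1:**
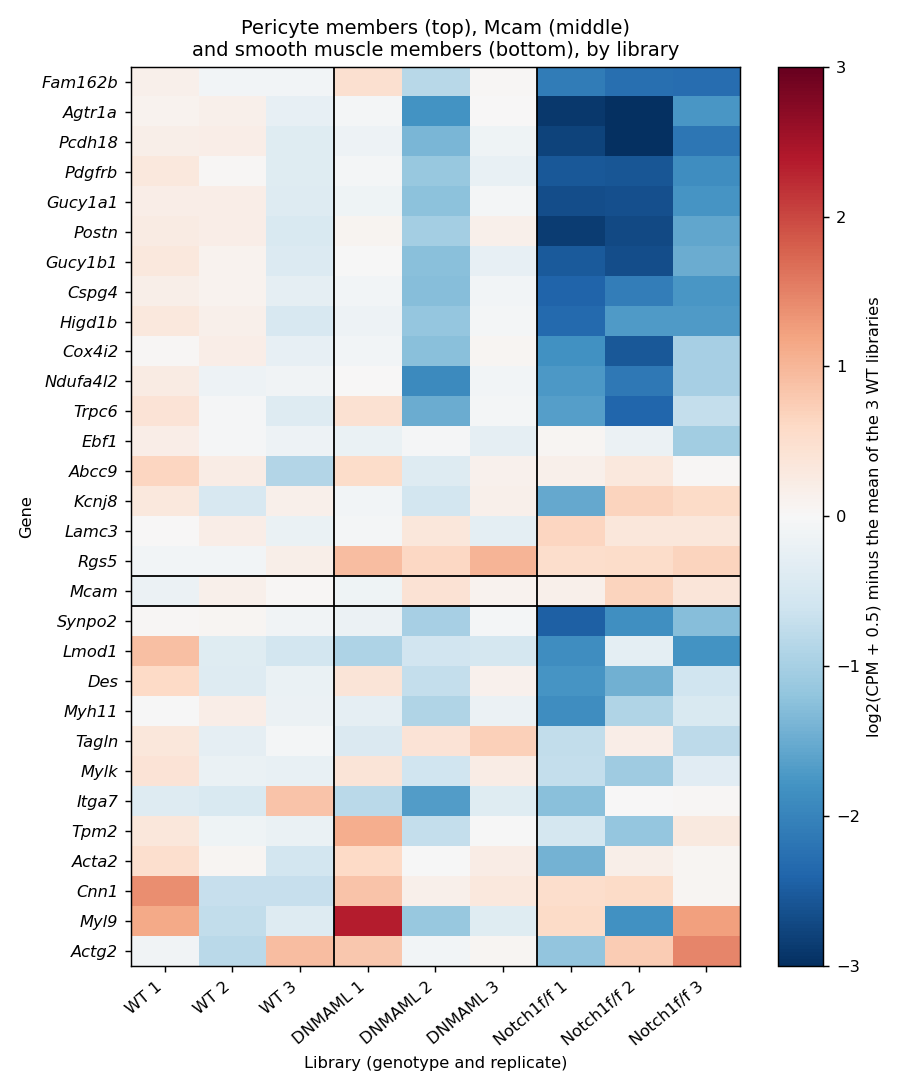
Level of each tested member in each library, as log2(CPM + 0.5) minus the mean of the 3 WT libraries (blue lower, red higher, colour limited to 3 in either direction). Rows are genes ordered within their role by the Notch1f/f difference, and columns are libraries. The upper pericyte rows are blue in all 3 Notch1f/f libraries and in DNMAML replicate 2, while Rgs5, Lamc3, Mcam and most smooth muscle rows are not.

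Receptors of the mural surface came first. Pdgfrb (ENSMUSG00000024620, chromosome 18, 61178222 to 61218133, GRCm39) had 251, 203 and 156 CPM in WT, 193, 90.2 and 170.1 in DNMAML, against 34.1, 33.04 and 54.5 in Notch1f/f libraries. Each Notch1f/f library lay below every other library, and DNMAML replicate 2 stood between the genotypes. The fall of Pdgfrb was 2.33 on the log2 scale (SE 0.32, n = 3 per group), a 5.02-fold lower level (edgeR adjusted p = 0.0192). Cspg4 (chromosome 9, 56772317 to 56807154), which encodes the NG2 proteoglycan, had 33.2, 31.8 and 24.2 CPM in WT, 27.6, 11.9 and 27.6 in DNMAML, against 5.19, 6.64 and 8.46 in Notch1f/f. It showed the same order of libraries by genotype, with a log2 difference of -2.14 (SE 0.32, edgeR adjusted p = 0.0165). Agtr1a, the angiotensin II receptor, fell short of the threshold (adjusted p = 0.0503) although its difference from WT was larger, at -2.78 (SE 0.58). Agtr1a ranged from 8.87 to 11.8 CPM in WT, from 2.696 to 10.6 in DNMAML and from 0.886 to 2.82 in Notch1f/f. Trpc6, a calcium-permeable channel, had 60.7, 44.3 and 34.8 CPM in WT, 62.9, 15.9 and 43.9 in DNMAML, against 14.1, 8.33 and 27.5 in Notch1f/f. All Notch1f/f values of Trpc6 were below WT, but the log2 difference of -1.49 (SE 0.58) did not pass (edgeR adjusted p = 0.315).

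Soluble guanylate cyclase, the nitric oxide receptor that makes cGMP in mural cells, is a pair of an alpha and a beta subunit. Gucy1a1 (chromosome 3, 81999734 to 82053096, minus strand, GRCm39) and Gucy1b1 (chromosome 3, 81939313 to 81981996, minus strand) are neighbours. Gucy1a1 had 309, 307.6 and 206.5 CPM in WT, 248, 114 and 257 in DNMAML, against 42.4, 43.2 and 79.3 in Notch1f/f libraries. Gucy1b1 had 191, 167 and 116 CPM in WT, 152, 64.6 and 131 in DNMAML, against 26.4, 24.1 and 55.0 in Notch1f/f. For both subunits all Notch1f/f libraries were below all others, and DNMAML replicate 2 was the lowest outside that genotype. Gucy1a1 fell by 2.32 on the log2 scale (SE 0.37, edgeR adjusted p = 0.0336), while the difference of -2.17 for Gucy1b1 (SE 0.43) missed the threshold (edgeR adjusted p = 0.0654). Per kilobase of exon the subunits were at 39.4 and 40.3 CPM in WT, 29.6 and 29.6 in DNMAML, against 7.89 and 8.96 in Notch1f/f. The ratio of alpha to beta on that scale was therefore 0.978, 1.00 and 0.880.

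The start regions of both subunits are shown because the genes lie side by side and their levels moved together. RefSeq promoters of build GRCm38.p6, a different build from that of the counts, were found for 20 of the 31 members, in 23 windows of 250 bases before to 50 after a start. The 6 letters TGGGAA, the core of the motif bound by the Notch partner RBPJ, were searched on both strands. They were present in 7 of the 23 windows and in 25.6% of all 32851 promoter windows of that length. The Gucy1a1 window was picked from a pair of annotated starts because it held 4 matches, and the other start held none. The 250 bases before each start are printed 5′ to 3′ on the minus strand with the matches in capitals, TTCCCA being the same motif on the opposite strand. A match describes letters only, and binding was not measured.
Gucy1a1 (chr3:82145074-82145323): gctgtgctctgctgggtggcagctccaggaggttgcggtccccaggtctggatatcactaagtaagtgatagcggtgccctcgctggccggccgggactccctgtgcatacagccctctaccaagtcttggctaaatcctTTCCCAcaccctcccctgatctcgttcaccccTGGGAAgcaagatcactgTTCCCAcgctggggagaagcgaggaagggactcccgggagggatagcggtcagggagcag
Gucy1b1 (chr3:82074712-82074961): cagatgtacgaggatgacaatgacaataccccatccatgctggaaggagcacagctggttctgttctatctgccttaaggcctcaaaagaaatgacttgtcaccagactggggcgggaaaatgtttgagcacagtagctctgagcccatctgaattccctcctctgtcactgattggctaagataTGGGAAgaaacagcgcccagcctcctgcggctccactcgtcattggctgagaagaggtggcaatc
In these letters Gucy1a1 holds 3 matches and Gucy1b1 holds 1, and the remaining Gucy1a1 match lies after the start.

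Of 3 members that encode mitochondrial proteins, 1 fell in Notch1f/f. Higd1b (chromosome 11, 102726675 to 102728866), a relative of the hypoxia-induced HIGD1A, had 19.4, 17.3 and 11.1 CPM in WT, 13.96, 6.69 and 14.95 in DNMAML, against 2.69, 4.43 and 4.397 in Notch1f/f. The highest Notch1f/f library of Higd1b was under the lowest DNMAML library, and the fall from WT was 2.05 on the log2 scale (SE 0.37, edgeR adjusted p = 0.0291). Cox4i2, an alternative subunit of cytochrome c oxidase that takes part in oxygen sensing in the lung, had 32.9, 36.9 and 26.6 CPM in WT, 29.9, 12.98 and 32.96 in DNMAML, against 8.68, 5.05 and 15.8 in Notch1f/f. For Cox4i2 the Notch1f/f libraries were below WT but crossed DNMAML replicate 2, and the difference of -1.71 (SE 0.44) did not pass (edgeR adjusted p = 0.107). Ndufa4l2, a hypoxia-induced relative of a respiratory chain subunit, ranged from 10.6 to 14.1 CPM in WT, 2.80 to 11.9 in DNMAML and 2.30 to 5.69 in Notch1f/f. Its difference from WT was -1.68 (SE 0.51), which did not pass (edgeR adjusted p = 0.143).

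Among the genes that fell, the largest differences were those of an adhesion gene and of Fam162b, a gene of little-known function. Pcdh18 (chromosome 3, 49697745 to 49711774), a protocadherin, had 92.4, 94.2 and 63.8 CPM in WT, 73.6, 31.4 and 75.2 in DNMAML, against 11.6, 8.68 and 18.04 in Notch1f/f libraries. Even the lowest DNMAML library of Pcdh18 was above all Notch1f/f libraries. Pcdh18 fell by 2.71 on the log2 scale (SE 0.39), a 6.54-fold lower level (edgeR adjusted p = 0.0207). Fam162b (chromosome 10, 51461512 to 51466613) was a scarce transcript, with 78, 52 and 66 counts in WT and 130, 36 and 100 in DNMAML. The Notch1f/f libraries held 10, 8 and 6 counts of Fam162b. That was a fall of 3.21 on the log2 scale (SE 0.58, edgeR adjusted p = 0.0289), the largest among the tested members in size. Postn, which encodes the matrix protein periostin, was the most abundant pericyte member by CPM, with 384, 371 and 234 in WT, 341, 159 and 359 in DNMAML, against 44.4, 49.1 and 109 in Notch1f/f. The Notch1f/f libraries of Postn were below all others, but the difference from WT of -2.29 (SE 0.45) missed the threshold (edgeR adjusted p = 0.0650).

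**Figure D2:**
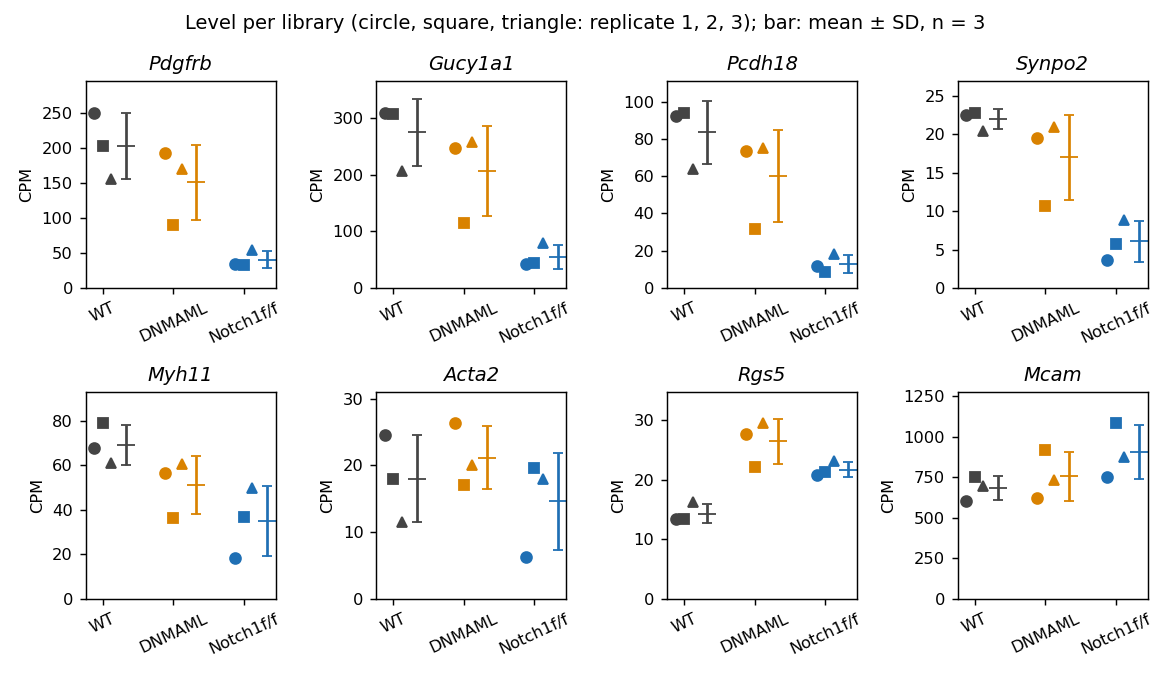
CPM of 8 members in every library, by genotype, with the mean and SD of 3 libraries beside the points. Pdgfrb, Gucy1a1, Pcdh18 and Synpo2 are lower in each Notch1f/f library than in any WT library, Acta2 overlaps, and Rgs5 is lowest in WT.

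Other genes on the pericyte list did not follow. Rgs5, a regulator of G protein signalling that is a classical pericyte marker, had 13.4, 13.3 and 16.2 CPM in WT, 27.8, 22.2 and 29.5 in DNMAML, against 20.9, 21.3 and 23.1 in Notch1f/f. Every DNMAML and Notch1f/f library of Rgs5 was above every WT library. The log2 difference of Rgs5 was 0.89 (SE 0.18) in DNMAML and 0.60 (SE 0.18) in Notch1f/f, and neither passed (edgeR adjusted p = 0.169 and 0.143). With the replicate number as a block in the 6 WT and DNMAML libraries, the DNMAML difference of Rgs5 was 0.88 and passed (edgeR adjusted p = 0.0253), in a fit that called 0.541% of all genes lower and 1.17% higher. With the same block in 9 libraries it did not pass, and it passed in 3 of the 19 other settings. Lamc3, a laminin chain, had 25.7, 29.6 and 22.1 CPM in WT, 24.5, 32.7 and 20.9 in DNMAML, against 40.6, 32.4 and 32.4 in Notch1f/f. All 3 Notch1f/f values of Lamc3 exceeded WT, with a difference of 0.45 (SE 0.20) that did not pass (edgeR adjusted p = 0.352). Ebf1, a transcription factor best known from B cells and also found in mural cells, had 24.9, 21.2 and 19.4 CPM in WT, 18.9, 21.0 and 17.9 in DNMAML, against 22.5, 19.1 and 10.3 in Notch1f/f. The groups of Ebf1 overlapped in each comparison. Kcnj8 and Abcc9, which form a potassium channel gated by ATP and mark brain pericytes, were scarce, at 0.358 to 3.45 and 1.63 to 5.62 CPM over the 9 libraries. Their log2 differences between genotypes were between -0.21 and 0.39, with SEs of 0.50 to 0.74.

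Mcam, which encodes the adhesion molecule CD146 and is shared with endothelium, was far above the rest. It had 603, 752.5 and 694 CPM in WT, 619, 918 and 729.9 in DNMAML, against 753, 1083 and 874 in Notch1f/f libraries. The Notch1f/f libraries of Mcam lay just above WT, and the difference of 0.40 (SE 0.18) did not pass (edgeR adjusted p = 0.357). Per kilobase of exon Mcam was at 204 CPM in WT, while the next members were Myl9 at 45.5, Cox4i2 at 40.8 and Gucy1b1 at 40.3.

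Smooth muscle genes of the contractile apparatus had log2 differences from WT between -1.86 and 0.71 in Notch1f/f libraries. Synpo2 (chromosome 3, 122870168 to 123029798) was the only one of 12 that fell in Notch1f/f. Synpo2 had 22.6, 22.8 and 20.4 CPM in WT, 19.5, 10.7 and 20.9 in DNMAML, against 3.58, 5.76 and 8.79 in Notch1f/f. Its Notch1f/f libraries were below all others, a fall of 1.86 on the log2 scale (SE 0.34, edgeR adjusted p = 0.0296). Des, the muscle intermediate filament desmin, which many pericytes also contain, had 72.2, 36.1 and 41.1 CPM in WT, 61.8, 28.6 and 52.4 in DNMAML, against 13.7, 17.2 and 31.3 in Notch1f/f. Myh11, the smooth muscle myosin heavy chain, had 67.9, 78.8 and 60.8 CPM in WT, 56.7, 36.4 and 60.4 in DNMAML, against 18.4, 36.9 and 49.7 in Notch1f/f. In Des and Myh11 the Notch1f/f libraries were below WT without overlap, with log2 differences of -1.27 (SE 0.41) and -0.98 (SE 0.33). Neither passed (edgeR adjusted p = 0.198 and 0.209). Mylk, the kinase that starts contraction by phosphorylating myosin light chain and is also expressed in endothelium, had 443, 292 and 286 CPM in WT, 439, 220.4 and 388 in DNMAML, against 204, 159.6 and 263 in Notch1f/f. Its difference of -0.70 (SE 0.28) did not pass either (edgeR adjusted p = 0.305).

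Acta2, the smooth muscle actin used most often to mark these cells, had 24.5, 17.95 and 11.5 CPM in WT, 26.3, 17.0 and 20.1 in DNMAML, against 6.18, 19.6 and 17.98 in Notch1f/f. Only Notch1f/f replicate 1 was below the WT range of Acta2, and the difference of -0.31 (SE 0.41) did not pass (edgeR adjusted p = 0.848). Tpm2, a tropomyosin, ranged from 10.5 to 15.4 CPM in WT, 7.19 to 26.2 in DNMAML and 5.14 to 14.8 in Notch1f/f, with overlap throughout. Myl9, a regulatory myosin light chain present in many cell types, had 98.7, 26.3 and 33.6 CPM in WT, 231, 20.1 and 34.5 in DNMAML, against 65.9, 12.2 and 105 in Notch1f/f. The highest Myl9 library exceeded the lowest 18.9-fold, with no order by genotype. Another 5 smooth muscle genes were near the limit of detection: Lmod1, Itga7, Actg2, Tagln and Cnn1 had at most 7.80, 4.38, 3.16, 1.24 and 1.61 CPM in any library. None of these 5 passed in any comparison, and their SEs were 0.67 to 1.502. For Tagln, 62.4% of the exon bases are shared with Gm48529 on the opposite strand, where reads are ambiguous under the recorded counting. Acta2 and Actg2 have near-identical relatives in the actin family, so their values are uncertain too.

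Set side by side, pericyte genes differed from WT by more than smooth muscle genes in Notch1f/f libraries. Of 17 tested pericyte genes 6 fell, 12 were lower without overlap and 2 were higher without overlap, with a median log2 difference of -2.05. Of 12 smooth muscle genes 1 fell and 4 were lower without overlap, with a median of -0.62. Of all tested genes 0.323% fell, 9.33% were lower without overlap and 8.5% were higher without overlap. The gap between the roles, as the smooth muscle median minus the pericyte median of log2 CPM relative to WT, was 0.91, 1.82 and 1.35 in the Notch1f/f libraries. It was 0.26, -0.50 and 0.08 in WT and 0.45, 0.52 and 0.12 in DNMAML libraries. The smooth muscle list includes Lmod1, Itga7, Actg2, Tagln and Cnn1, which were near the limit of detection and could hardly be called. Scarce genes of the pericyte list include Kcnj8 and Abcc9. Log2 CPM for the gap was taken with a prior count of 2, a small added count that shrinks differences of scarce genes. These are descriptions of the listed genes, and the difference between the roles was not tested. In the male libraries the pericyte median was -2.48 in Notch1f/f replicate 1 against 0.11 in WT replicate 2. In the female libraries it was -2.43 and -1.49 in Notch1f/f against 0.20 and -0.28 in WT. In DNMAML it was -0.07 and -0.05 in the male replicates 1 and 3 and -1.20 in replicate 2, the only female library of that genotype.

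**Figure D3:**
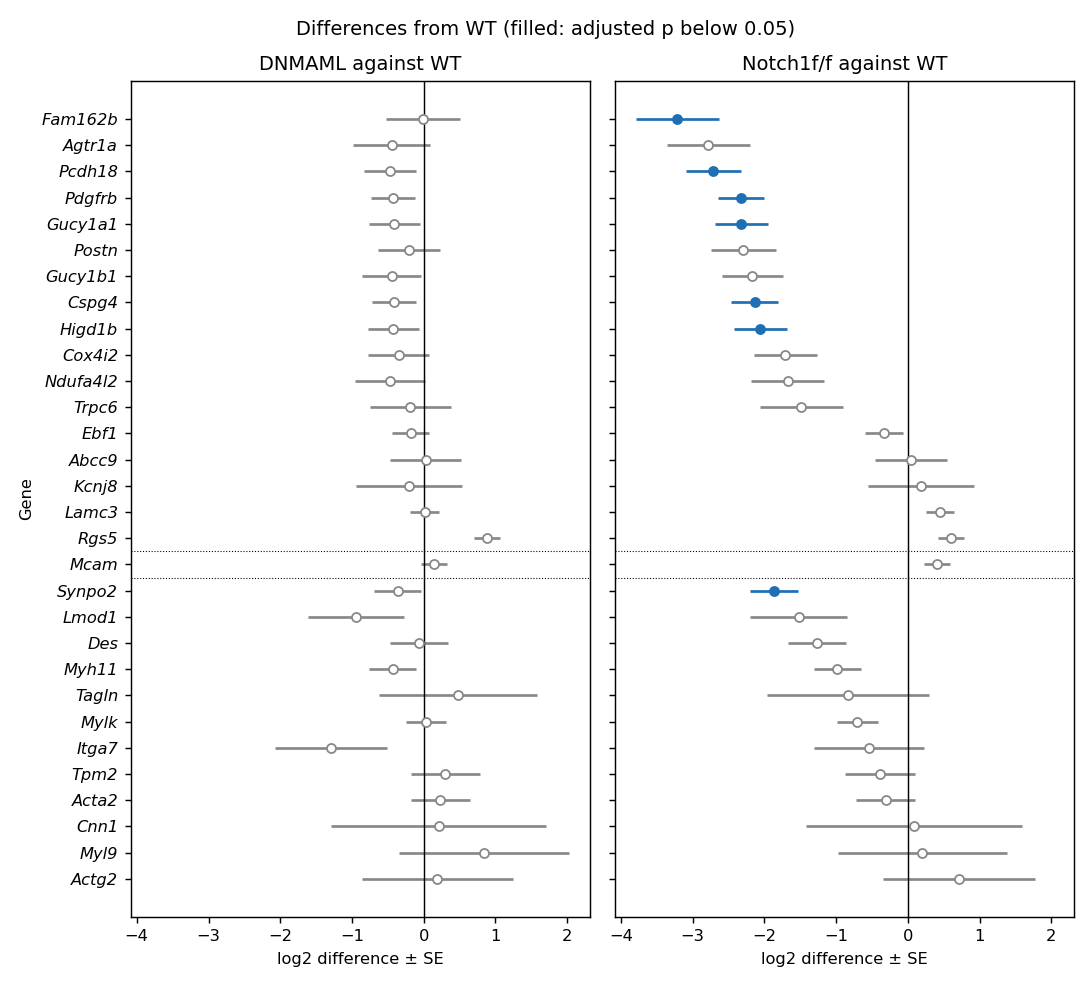
Log2 difference from WT with its SE for each tested member in DNMAML (left) and Notch1f/f (right) libraries, n = 3 per group, with filled points where the adjusted p was below 0.05. The 7 filled points, all lower, are in the Notch1f/f panel, and no DNMAML point is filled. Both panels share the WT libraries.

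The DNMAML libraries were compared with the same WT libraries. No member passed in the edgeR test, and 0.00513% of all genes rose and 0% fell. At an unadjusted p below 0.05 there was 1 member, Rgs5, where 5.97% of all genes passed, and DESeq2 called it higher, as it did 0.884% of all genes (adjusted p = 0.00349, with a range from 0.00349 to 0.555 over the 19 other settings). Values of 14 of the 17 pericyte genes were below WT, where 48.9% of all genes were, with a median log2 difference of -0.35, and the smooth muscle median was 0.11. Myh11 was the only member lower without overlap and Rgs5 the only one higher, where 6.84% and 7.58% of all genes were. Much of the pericyte difference sat in a single library, which is also the only female one of its genotype, so that library and sex cannot be told apart there. The pericyte genes had a median of -1.20 in DNMAML replicate 2, relative to the WT mean on the log2 scale, and of -0.07 and -0.05 in replicates 1 and 3. Without DNMAML replicate 2 the median log2 difference of pericyte genes was -0.04, and that of smooth muscle genes 0.33. The smooth muscle median was -0.33 without DNMAML replicate 1, which held the highest Myl9 and Tpm2 values, and -0.25 without WT replicate 2.

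Between Notch1f/f and DNMAML libraries, both already used above, no member passed in the edgeR test, by which 0.0205% of all genes changed, 0.0103% lower and 0.0103% higher. Here 14 members were lower and 1 higher at an unadjusted p below 0.05, where 6.37% of all genes passed, and DESeq2 called 10 lower, where it called 0.719% of all genes lower. The groups did not overlap for 9 members, all lower in Notch1f/f, where 5.32% of all genes were lower and 4.4% higher in that way. These were Pdgfrb, Cspg4, Higd1b, Gucy1a1, Gucy1b1, Pcdh18, Fam162b, Postn and Synpo2. Log2 differences of Pdgfrb and Pcdh18 were -1.90 (SE 0.32) and -2.24 (SE 0.38), with edgeR adjusted p = 0.254 and 0.255. Without DNMAML replicate 2, where 0.102% of all genes were called lower, 5 members passed as lower, namely Pdgfrb, Cspg4, Gucy1a1, Pcdh18 and Fam162b, with log2 differences of -2.18, -2.04, -2.21, -2.56 and -3.53. The edgeR adjusted p in that fit ran from 0.00762 to 0.0406, and over all settings for these 5 genes up to 1.00.

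Several pericyte members kept a nearly constant ratio to Pdgfrb, whose own level spanned 7.59-fold over the 9 libraries. The ratio of Gucy1a1 to Pdgfrb stayed between 1.23 and 1.51, although Gucy1a1 itself spanned 7.30-fold. Ratios of Gucy1b1, Cspg4, Postn, Pcdh18, Higd1b and Synpo2 to Pdgfrb varied by 1.41-fold to 1.94-fold between the extreme libraries. The ratio to Pdgfrb varied 2.21-fold for Cox4i2, 2.87-fold for Trpc6 and 3.23-fold for Des. It varied 4.12-fold for Myh11, 4.16-fold for Mylk, 5.05-fold for Tpm2 and 6.74-fold for the pericyte member Ebf1. The widest were Acta2 at 8.04-fold, the pericyte members Lamc3 at 11.6-fold and Rgs5 at 12-fold, Mcam at 13.6-fold and Myl9 at 14.9-fold. The ratio of the smooth muscle gene Synpo2 to Pdgfrb thus varied less than those of Acta2 and Myl9. The libraries are shared between all these ratios, and no test was made of them.

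**Figure D4:**
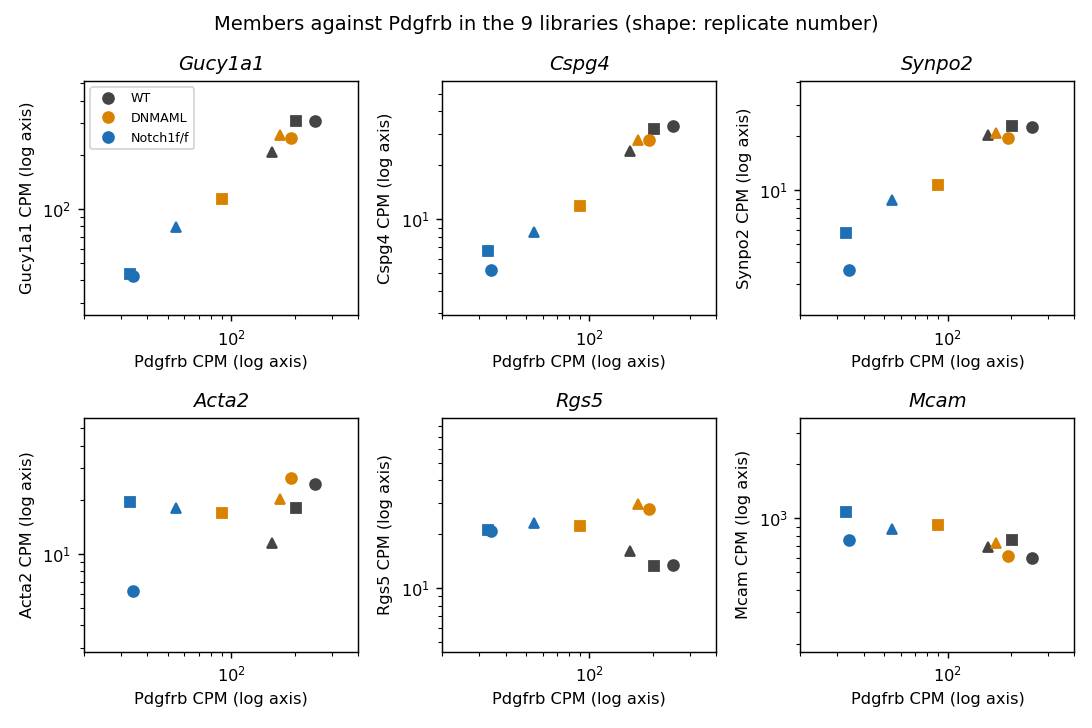
CPM of 6 members against CPM of Pdgfrb in the 9 libraries, both on log axes with the same vertical span in each panel. Gucy1a1, Cspg4 and Synpo2 rise with Pdgfrb from the Notch1f/f to the WT libraries, Acta2 does so loosely, and Rgs5 and Mcam do not.

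Among 11118 other genes with a mean of at least 5 CPM, the members Gucy1a1 and Pcdh18 had the patterns most like Pdgfrb over the 9 libraries (Pearson r of log2 CPM 0.995 and 0.994). Outside the set the 10 most like it were Notch3, Pdzd2, Axl, Tbx5, Adcy8, Heyl, Pag1, S1pr3, Dkk3 and Dennd2a, with r from 0.992 down to 0.978. The libraries form genotype groups and share their depth across genes, so these values are descriptions. Notch3, the Notch receptor of mural cells, had 114.5, 119 and 69.8 CPM in WT, 84.2, 43.1 and 80.1 in DNMAML, against 15.3, 18.1 and 25.6 in Notch1f/f. Its libraries thus stood in nearly the order of Pdgfrb.

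Further pericyte and smooth muscle genes were listed by hand. In Notch1f/f against WT 0.323% of all genes fell and 0.513% rose. Of 21 tested other pericyte genes 2 fell, Notch3 by 2.36 (SE 0.32) and Pdzd2 by 1.39 (SE 0.21) on the log2 scale (edgeR adjusted p = 0.0165 for each). The list had a median of -1.39, with 19 values lower. The transcription factor genes Tbx5 and Foxf2, the phosphodiesterase gene Pde5a and the endothelin receptor gene Ednra had differences of -2.43, -2.81, -1.65 and -2.30, which did not pass. Mean Ednrb was at 443 CPM in WT and 233 in Notch1f/f, and mean Tbx2 at 320 and 155. The scarce Steap4 and Foxc1 were higher, at 2.63 and 3.44 CPM in WT and 5.95 and 5.18 in Notch1f/f. Of 24 tested other smooth muscle genes 2 fell, the calcium channel gene Cacna1c by 1.44 (SE 0.20) and the Notch target Heyl by 1.85 (SE 0.38). Cacna1h, a calcium channel gene of another class, rose from 5, 1 and 2 counts to 178, 220 and 31 counts. EdgeR adjusted p values of these genes were 0.0140, 0.0482 and 0.0175. That list had a median of -0.05, and its abundant members Cald1 and Tpm1 were at 247 and 209 CPM in WT and at 224 and 199.2 CPM in Notch1f/f libraries. In DNMAML against WT the edgeR test called 0 genes of either list, with medians of -0.24 and 0.10. At an unadjusted p below 0.05 there were 1 and 3 genes, where 5.97% of all genes passed.

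Signals between endothelium and mural cells were listed as 34 genes, each tested singly. The list holds endothelial ligands, and also receptors and signal carriers such as Pdgfra, S1pr3, Rbpj and Smad4. The arterial ligand Efnb2 fell in Notch1f/f, from 1036, 1036 and 1070 CPM in WT to 561, 355 and 587 CPM (log2 change -1.06, SE 0.20, edgeR adjusted p = 0.0336). DNMAML libraries held 552, 761 and 812 CPM of Efnb2, also below WT without overlap. The apelin receptor Aplnr rose by 1.30 (SE 0.20, adjusted p = 0.0166). The list had a median of -0.20, which is not that of endothelial ligands alone. Pdgfb, the endothelial ligand of PDGFRB, had 313, 334 and 380.0 CPM in WT, 324, 434 and 294 in DNMAML, against 434, 456 and 404 in Notch1f/f. All Notch1f/f values of Pdgfb were above WT while Pdgfrb was lower, but the difference of 0.33 (SE 0.16) did not pass (edgeR adjusted p = 0.379). Jag1, the endothelial ligand that can activate NOTCH3, had 95.5 ± 2.44 CPM in Notch1f/f, 77.3 ± 10.6 in DNMAML and 108 ± 10.9 in WT (SD, n = 3), and its log2 difference of -0.18 (SE 0.13) from WT in Notch1f/f did not pass. In DNMAML Jag1 was below WT without overlap, as 6.84% of all genes were. That log2 difference of -0.48 (SE 0.13) did not pass either (edgeR adjusted p = 0.32). Of 23 tested genes of cGMP signalling and contraction, 0 passed in edgeR in Notch1f/f against WT. An unadjusted p below 0.05 was found for 4 of them, near the share of 13.4% among all genes. Their median was -0.11, and the cGMP kinase gene Prkg1 had 46.4, 49.5 and 38.0 CPM in WT and 16.8, 5.36 and 25.03 in Notch1f/f. Nos3, which makes nitric oxide in endothelium, was at 46.3 CPM in WT and 73.5 CPM in Notch1f/f on average, a difference of 0.67 (SE 0.22) that did not pass.

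Markers of other lung cells moved with the mural genes in part. The summed level of 16 fibroblast markers was 714 to 2674 CPM in WT, 574 to 2818 in DNMAML and 294 to 1014 in Notch1f/f, and their median log2 difference in Notch1f/f was -1.45 with 13 of 16 lower. For 12 epithelial markers the sums were 458 to 3551, 262 to 1833 and 183 to 1250.0 CPM, with a median of -0.98 and 12 of 12 lower. No fibroblast or epithelial marker passed in edgeR, and each was detected in every library except Lum and Fgfr4, at 0 in 1 library each. The pericyte sums were 958 to 1475 CPM in WT, 593 to 1247 in DNMAML and 267 to 453 in Notch1f/f. They did not overlap between WT and Notch1f/f, while the fibroblast and epithelial sums did. Single fibroblast markers did separate, with 4 of 16 lower and 1 higher without overlap in Notch1f/f, where 9.33% and 8.5% of all genes were. Log2 differences of the fibroblast markers ran from -3.32 to 1.66, so some were as large as those of the pericyte genes. Mean Inmt was 481 CPM in WT and 61.9 in Notch1f/f, and mean Pdgfra 208 and 44.5. WT replicate 2 had the lowest fibroblast and epithelial sums of its genotype, 714 and 458 CPM, with a pericyte sum of 1369 CPM. DNMAML replicate 2 was the lowest of its genotype in all 3 sums, with 574, 262 and 593 CPM. Notch1f/f replicate 1 had the lowest fibroblast and epithelial sums of its genotype, 294 and 183 CPM, with a pericyte sum of 283 CPM. WT replicate 2, DNMAML replicate 2 and Notch1f/f replicate 1 were also the libraries with the lowest Fos. Myl9 was highest in the libraries with the highest fibroblast sums of WT, DNMAML and Notch1f/f. The part of these cells in the mural differences was not tested. The summed endothelial markers were 16160 to 17750 CPM in WT, 14850 to 16320 in DNMAML and 13710 to 16970 in Notch1f/f. Leukocyte, mesothelial, cardiomyocyte and glial or neuronal lists summed to at most 826, 11.7, 57.0 and 14.7 CPM in any library. Their medians in Notch1f/f against WT were 0.68, -0.32, -0.02 and -0.69, and of their markers Nppa and Sln, which are atrial genes, were at 0 in 7 and 8 libraries. The highest leukocyte sum, in WT replicate 3, was mostly Lyz2 at 812 CPM, while Ptprc, which encodes CD45, was at most 28 CPM in any library. The highest cardiomyocyte sum, in Notch1f/f replicate 2, was mostly Ryr2 at 45 CPM.

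**Figure D5:**
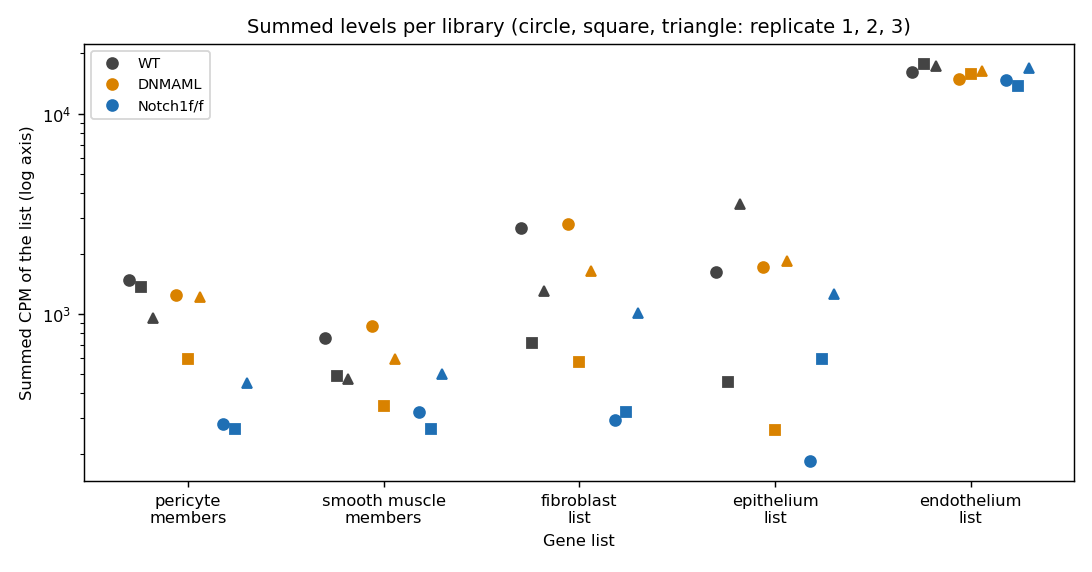
Summed CPM of the pericyte and smooth muscle members and of marker lists of other cells in each library, on a log axis. The pericyte sums of the Notch1f/f libraries, 267 to 453 CPM, lie below all others, the other lung lists overlap between genotypes, and the endothelial sums stay between 13710 and 17750 CPM.

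The CArG box, the sequence through which serum response factor drives contractile genes, was searched on both strands in the same windows. The letters searched were CCWWWWWWGG, with W for A or T. That exact pattern was present in 2 of the 23 windows, those of Trpc6 and Myl9, and in 1.63% of all promoter windows. Looser forms were not counted, such as CCCTATATGG in the Acta2 window. Both are shown because these genes had different patterns: Trpc6 was below WT in every Notch1f/f library, and Myl9 varied without order by genotype. Both stretches are 250 bases before the start on the plus strand of GRCm38.p6, with the CArG box in capitals. No match says only that the exact pattern is not in a window.
Trpc6 (chr9:8543892-8544141): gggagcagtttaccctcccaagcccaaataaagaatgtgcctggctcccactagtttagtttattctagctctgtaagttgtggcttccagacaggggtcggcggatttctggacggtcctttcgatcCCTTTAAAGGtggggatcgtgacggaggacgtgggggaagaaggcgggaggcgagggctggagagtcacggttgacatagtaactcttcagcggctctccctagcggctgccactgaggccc
Myl9 (chr2:156775214-156775463): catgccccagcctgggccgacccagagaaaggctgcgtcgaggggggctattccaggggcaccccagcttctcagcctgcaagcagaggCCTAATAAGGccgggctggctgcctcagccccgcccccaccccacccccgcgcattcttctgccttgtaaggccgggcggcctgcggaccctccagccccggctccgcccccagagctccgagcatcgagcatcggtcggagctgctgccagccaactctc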

How the data were processed

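The deposited values are raw read counts, whole numbers for each gene. The authors counted with featureCounts 2.0.1 and Ensembl release 107 on GRCm39, per the file headers, and the recorded command names no option for strand, read pairs or multiple mapping. The submitters' processing notes name STAR 2.7 and mm10. Strand-specific libraries of total RNA depleted of ribosomal RNA were made as a single batch, per the labels' protocols. Even numbers made up 76.6% to 89.0% of counts from 1 to 199, so many fragments may count as a pair. The gene length in the authors' table is the exon length in bases. Symbols were matched for 52073 of 56748 identifiers. A robust quasi-likelihood fit of edgeR 4.0.16 (R 4.3.3), with TMM scaling and genotype as the term, covered 9 libraries and the 19486 genes that passed filterByExpr. SE is the log2 difference over the square root of F. Alternatives used limma 3.58.1, DESeq2 1.42.0, other scaling, filters, pairing, halved counts and left-out libraries. The test was checked on simulated data. The members and lists were chosen with earlier results of these data known. Members past the threshold or with a mean of at least 10 CPM are given by library. Of the other lists, genes past the threshold are named, with the other named genes picked for their abundance or role after their values were seen. An exact permutation test of 3 against 3 libraries cannot go below p = 0.1 and was not used. The main fit used no pairing, and the replicate number as a block was an alternative in every comparison. Same-numbered WT and DNMAML libraries deviated together (r = 0.24, 0.34 and 0.18), which is read from the data, and each such pair differed in sex. Libraries of different numbers did so too, as Notch1f/f replicate 1 with WT replicate 2 (r = 0.35) and DNMAML replicate 2 (r = 0.31). Whether the numbers are true pairs is therefore not known.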

Additional observations from a re-analysis of the deposited data

How the results depend on the processing

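Each comparison was recomputed under 19 other settings, and no tested member reversed a call. Members called lower in Notch1f/f against WT numbered 7, and 15 with DESeq2, 1 with limma-voom, 16 without a filter, 3 with the replicate number as a block in 6 libraries, 8 with that block in 9 libraries, and 0 to 12 when a library was left out. The shares of all genes called lower under these settings were 2.19%, 0.123%, 2.26%, 0.232%, 0.765% and 0.0241% to 0.788%, against 0.323%. For Notch1f/f against DNMAML the count of lower members was 0, and 10 with DESeq2, 15 without a filter, 1 with the replicate block in 6 libraries and 0 to 5 when a library was left out, where 0.719%, 1.56%, 0.0271% and 0.00965% to 0.102% of all genes were lower. For DNMAML against WT the count of higher members was 0, and 1 with DESeq2, 2 without a filter and 1 with the replicate block in 6 libraries, where 0.884%, 1.09% and 1.17% of all genes were higher. The cause was not tested. The pairing was read only from the data, changed no other call of a member in DNMAML against WT, and left 2 residual degrees of freedom. Medians of the pericyte and smooth muscle genes moved by less than 1 SD between libraries under each setting, although the smooth muscle median of DNMAML against WT, 0.11, ran from -0.33 to 0.33 and so had no stable sign. Members under 10 CPM, 10 of the 30 tested, have the least depth, and for them small differences were not detectable.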
